A study of Homo sapiens with 6 samples.

Results

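The 6 aldo-keto reductase genes AKR1C1, AKR1C2, AKR1C3, AKR1C4, AKR1B10 and AKR1D1 were examined among 20033 protein-coding genes for peaks of the UHRF1 tandem Tudor domain (TTD). UHRF1 is a nuclear protein that maintains DNA methylation, and its TTD reads methylated lysines on histone H3. The domain, residues 126 to 280 fused to GST, was used in a CIDOP experiment, in which it takes the place of an antibody and pulls down native mononucleosomes. The chromatin came from untreated HepG2 cells, an established liver cancer line labelled as hepatoblastoma, and the 2 TTD CIDOP samples are biological duplicates. H3K9me2 ChIP and input samples, 2 each, complete the series of 6 samples and were not used here. The authors combined both TTD samples before calling peaks and deposited 1 list of 31569 broad peaks with positions and widths only, so every value below is a position, a count or a percent of sequence in peaks, with no error between replicates. The methods state a minimum number of reads per library, but the list itself gives no read depth for any peak or gene.

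The genes were picked with results from these peaks in view, because AKR1C1 and AKR1C2 are listed by the study as higher in HepG2 cells than in liver and had been found well covered by TTD peaks. Their cover is therefore a description and was not tested. Expression was not measured in these files.

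AKR1 enzymes are soluble oxidoreductases that use NADPH to reduce ketones and aldehydes to alcohols, and AKR1D1 reduces a carbon double bond of the steroid nucleus. In the liver they inactivate or interconvert steroid hormones, take part in bile acid synthesis and clear reactive carbonyls and drugs. The AKR1C genes arose by tandem duplication and are very similar in sequence. AKR1C1, AKR1C2, AKR1C3 and AKR1B10 are known to be induced through the stress-responsive factor NRF2, and AKR1C4 and AKR1D1 are largely liver enzymes.

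All 6 genes had a TTD peak within 2.5 kb of the transcription start site (TSS), against 16.9% of all protein-coding genes, and in the gene body, against 30.6%, but the peaks lay differently. At AKR1C3, AKR1C4, AKR1B10 and AKR1D1 a broad peak ran over the TSS itself, as at 2.19% of all genes. At AKR1C1 and AKR1C2 the TSS was free of peaks, and a smaller peak lay inside the gene over the second and the third exon. Most of the sequence covered in the AKR1C cluster lay outside the canonical transcripts of these genes. The gene records of the annotation, which span all transcripts of a gene, held 68.5% of it. The cover was similar inside these records (43.1%) and outside of them (44.8%). For each gene the canonical transcript of GENCODE release 44 on hg38 gave the TSS and the gene body. All 6 are MANE Select transcripts, the ones on which Ensembl and RefSeq match.

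The start regions of AKR1C1 and AKR1C2 are almost the same sequence and neither was in a peak, whereas those of AKR1C3 and AKR1C4 lay fully in peaks. They are shown from RefSeq on GRCh38.p14, 5′ to 3′ in the direction of transcription, with 250 bases before and 50 bases from the start site on. The table holds 6 such windows for 5 of the 6 genes, all equal to hg38, and AKR1B10 has no entry. Capitals mark bases of AKR1C1 without an identical partner in AKR1C2, and in the other 3 sequences bases without an identical partner in AKR1C1.
AKR1C1, chr10:4963165-4963464, plus strand, 0% in peaks: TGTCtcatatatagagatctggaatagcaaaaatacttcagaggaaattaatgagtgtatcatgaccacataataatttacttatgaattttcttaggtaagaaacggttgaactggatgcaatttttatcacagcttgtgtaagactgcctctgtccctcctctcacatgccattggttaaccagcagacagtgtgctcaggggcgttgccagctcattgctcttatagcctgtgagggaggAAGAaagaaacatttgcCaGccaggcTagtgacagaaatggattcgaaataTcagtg
AKR1C2, chr10:5003808-5004107, minus strand, 0% in peaks: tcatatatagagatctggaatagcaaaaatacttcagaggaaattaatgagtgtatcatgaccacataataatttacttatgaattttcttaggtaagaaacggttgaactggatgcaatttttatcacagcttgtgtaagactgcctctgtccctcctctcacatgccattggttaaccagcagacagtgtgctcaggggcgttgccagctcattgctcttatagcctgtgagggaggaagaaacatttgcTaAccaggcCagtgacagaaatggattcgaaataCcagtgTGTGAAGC
AKR1C3, chr10:5094164-5094463, plus strand, 100% in peaks: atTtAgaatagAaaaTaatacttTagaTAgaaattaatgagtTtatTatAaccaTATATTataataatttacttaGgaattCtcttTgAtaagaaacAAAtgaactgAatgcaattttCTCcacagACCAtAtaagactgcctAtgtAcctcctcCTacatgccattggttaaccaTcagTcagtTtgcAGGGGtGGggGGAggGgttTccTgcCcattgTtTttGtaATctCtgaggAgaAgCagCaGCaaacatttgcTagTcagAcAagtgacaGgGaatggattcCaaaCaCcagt
AKR1C4, chr10:5196587-5196886, plus strand, 100% in peaks: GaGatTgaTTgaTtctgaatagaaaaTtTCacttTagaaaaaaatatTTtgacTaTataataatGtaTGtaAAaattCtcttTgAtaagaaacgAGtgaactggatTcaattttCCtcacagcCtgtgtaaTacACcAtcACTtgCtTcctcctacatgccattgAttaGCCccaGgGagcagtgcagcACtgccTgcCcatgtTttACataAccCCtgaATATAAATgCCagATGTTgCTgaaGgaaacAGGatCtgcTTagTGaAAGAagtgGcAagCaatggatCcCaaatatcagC
The windows of AKR1C1 and AKR1C2 were identical at 288 of 292 aligned bases, or 98.6%, with 4 further bases unpaired within the alignment. Against AKR1C1, the window of AKR1C3 had 79.9% identity over 283 aligned bases, with 17 further bases unpaired. That of AKR1C4 had 78.7% over 268 aligned bases, with 56 unpaired. RefSeq gives AKR1C3 another start region further upstream, 80.9% identical to that of AKR1C1, and 20.0% of that window was in a peak.

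The start region of AKR1D1 was also fully in a peak and is shown with the letters CAAAGNNCA, a form of the site of the liver factor HNF4, in capitals.
AKR1D1, chr7:138076209-138076508, plus strand, 100% in peaks: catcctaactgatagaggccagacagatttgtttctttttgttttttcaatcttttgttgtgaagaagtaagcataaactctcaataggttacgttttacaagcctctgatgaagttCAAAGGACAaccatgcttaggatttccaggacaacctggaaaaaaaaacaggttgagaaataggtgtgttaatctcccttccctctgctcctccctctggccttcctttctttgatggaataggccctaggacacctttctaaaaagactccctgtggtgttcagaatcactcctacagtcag
Both strands of each window were searched for 4 motifs, which were chosen with the sequences in view, and no 2 matches overlapped. The HNF4-type letters CAAAGNNCA occurred in the AKR1D1 window only, against 5.28% of 35116 RefSeq windows. The letters GTTAAT, part of the HNF1 site, were likewise found in AKR1D1 only, against 6.88% of windows. TGTTTNC, the core read by FOXA factors, matched at the downstream start region of AKR1C3 and at AKR1C4, against 18.0% of windows. TGACNNNGC, the antioxidant response element through which NRF2 acts, matched none of the 6 windows, against 13.3% of all. A match is a match of letters only, and factor binding was not measured here.

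The start regions were poor in CpG sites. In the 1 kb around the TSS, the ratio of observed to expected CpG was 0.241 at AKR1C1, 0.265 at AKR1C2, 0.274 at AKR1C3 and 0.145 at AKR1C4. It was 0.239 at AKR1B10 and 0.158 at AKR1D1. The median over all protein-coding genes was 0.725, and the 6 genes lay among the lowest 5.14% to 17.6%. Their GC content was 36.4% to 39.1%, except for AKR1B10 with 50.1%, against a median of 61.3%. Low CpG content was thus shared by the genes with the TSS in a peak and those without.

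Around the TSS, a peak was present in the 5 kb window of 6 of 6 genes, against 16.9% of all protein-coding genes. At least 25% of the window was in peaks at 5 of the 6 genes, against 8.95% of all genes, the exception being AKR1C2. The TSS base itself was in a peak at 4 of the 6, against 2.19% of all genes. As the genes were picked for their cover, nothing is read from these counts beyond the description.

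AKR1C4 (ENSG00000198610.11, chr10:5196837-5218949), a liver dehydrogenase of steroid and bile acid metabolism, has its TSS at position 5196837 of chromosome 10 on the plus strand. The window around it was covered to 100%, as was that of 0.250% of all genes. A peak of 7590 bp, from 5192781 to 5200370, extended from -4056 to +3533 bp relative to the TSS. A further peak of 9330 bp began inside the gene and ran over its 3′ end. The first, second, eighth and ninth exon of 9 were in peaks and those between were not, so the gene was covered at its ends, to 37.9% over 22.1 kb.

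AKR1D1 (ENSG00000122787.15, chr7:138076459-138118305), the steroid reductase whose action gives bile acids their bent ring shape, also had its 5 kb window covered to 100%. Its TSS lies at 138076459 on chromosome 7, plus strand, in a peak of 12870 bp from 138067371 to 138080240, wider than all but 1.04% of TTD peaks. The larger part of this peak lay before the gene, since it ran from -9088 to +3781 bp relative to the TSS. A narrow peak of 2060 bp lay in an intron, and one of 7060 bp contained the whole last exon. Peaks thus covered 20.7% of the 41.8 kb transcript, 68.5% of its exons and 17.4% of its introns, and all covered exon sequence was in the first and the last exon.

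AKR1C3 (ENSG00000196139.14, chr10:5094414-5107686) makes testosterone from androstenedione and also acts on prostaglandins. Its TSS at 5094414, plus strand, lies in a peak of 6630 bp from 5092601 to 5099230. The window was covered to 86.3%, a level reached by 0.439% of all genes, with 72.5% upstream and 100% downstream of the TSS. The peak contained the first 4 of 9 exons and ended before the fifth. Of the 13.3 kb transcript, 36.3% was covered, with little difference between exons (40.3%) and introns (35.9%).

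AKR1B10 (ENSG00000198074.10, chr7:134527567-134541412), which reduces retinal and other aldehydes, was covered to 80.5% of the window around its TSS at 134527567 on chromosome 7, plus strand, and 0.639% of genes reached this. In contrast to AKR1C3, the upstream side was filled (100%) and the downstream side in part (60.9%). The peak, from 134523801 to 134529090, ended 1523 bp into the gene in its first intron. The other 9 exons were free of peaks and 11.0% of the 13.8 kb transcript was covered.

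AKR1C1 (ENSG00000187134.14, chr10:4963415-4983283) inactivates progesterone. Its TSS at 4963415, plus strand, was 556 bp from the nearest peak, which lay downstream, from 4963971 to 4967760. The window was covered to 38.9%, all of it downstream (77.8% against 0% upstream), and 4.37% of genes had as much. The peak of 3790 bp contained the second and the third of 9 exons. It made up all the cover of the 19.9 kb transcript, 19.1%.

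AKR1C2 (ENSG00000151632.18, chr10:4987775-5003857), which inactivates dihydrotestosterone, had the least cover at the TSS. From the TSS at 5003857, minus strand, the nearest peak was 1877 bp downstream, at 5000231 to 5001980. Its 1750 bp are fewer than the median peak width of 2250 bp. The window was covered to 12.5%, with 0% upstream and 25% downstream, and 14.5% of genes had as much. As in AKR1C1, the second and the third of 9 exons lay in the peak, 285 bp in each gene, and no others. Over the 16.1 kb transcript the cover was 10.9%. Over the longer gene record it was 32.1%, and with only peaks no narrower than the median the transcript had 0%.

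**Figure D1:**
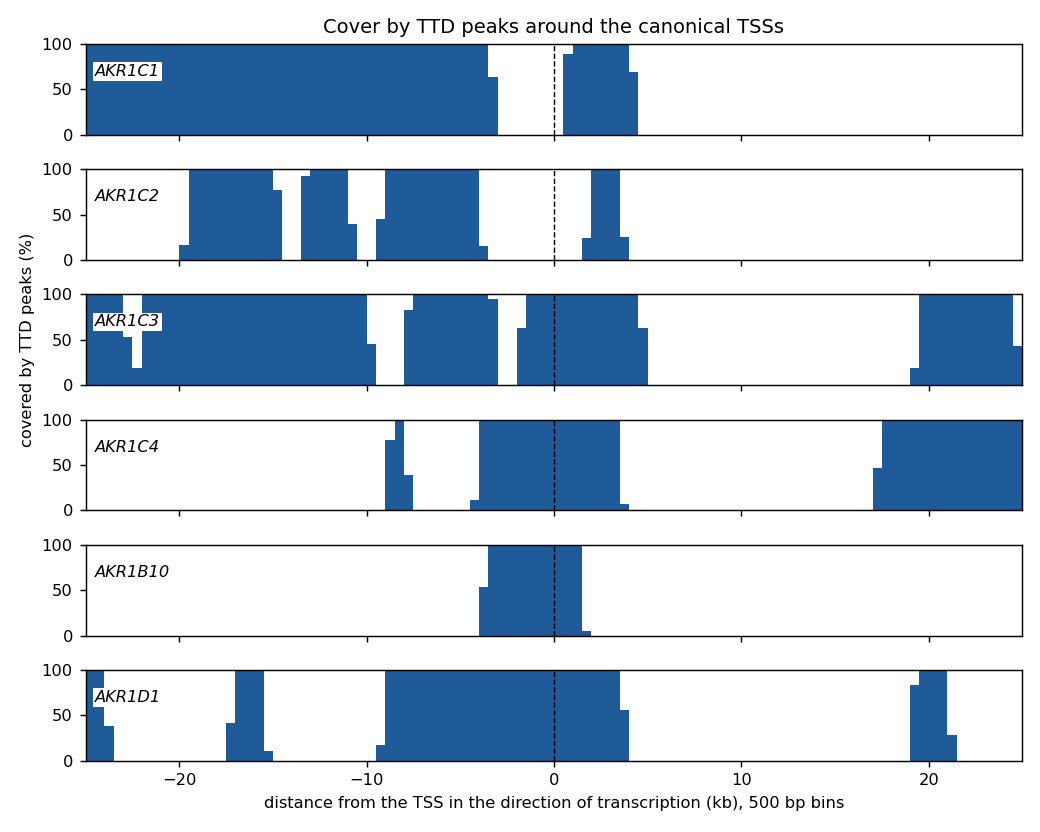
Percent of each 500 bp bin in TTD peaks (vertical axis) within 25 kb of the canonical TSS of each gene (dashed line), with transcription running to the right. The bins at the TSS are full for AKR1C3, AKR1C4, AKR1B10 and AKR1D1, and empty for AKR1C1 and AKR1C2, whose peaks begin 556 and 1877 bp downstream.

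The gene record of GENCODE, which spans all transcripts of a gene, gives another 5′ end for some of these genes and a different order. For AKR1C2 this end lies 14174 bp before the canonical TSS, and the window there was covered to 77.0% by 2 peaks, against 12.5% at the canonical TSS. AKR1C2 was thus well covered at an upstream start and poorly covered at its canonical one. For AKR1D1 the record begins 74135 bp upstream, where the window contained no peak. The record of AKR1C3 begins 59060 bp upstream and its window was covered to 36.8%. The ends differed by 162 bp for AKR1C1 (35.7%) and 1375 bp for AKR1C4 (100%), and not at all for AKR1B10.

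Over all annotated start sites of AKR1C2, of which there are 10, a peak was present in 10 windows, with a mean cover of 40.4% and a range of 9.16% to 77.0%. The 5 sites of AKR1C1 averaged 47.3% (35.7% to 75.8%). AKR1C4 had 100% at each of 3 sites. The mean was 57.5% over 10 sites of AKR1C3, 66.7% over 6 sites of AKR1D1 and 40% over 4 sites of AKR1B10, and in these 3 genes the range reached from 0% to at least 80.5%.

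**Figure D2:**
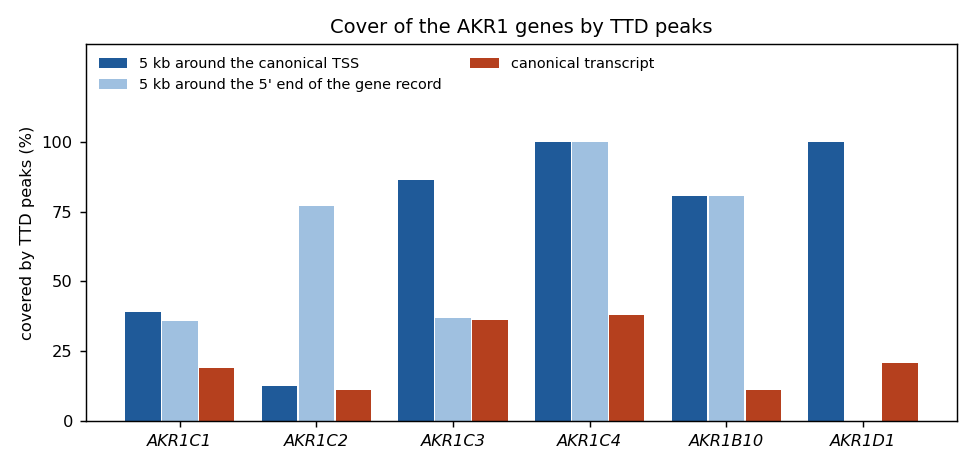
Percent covered by TTD peaks for the 5 kb around the canonical TSS (dark blue), the 5 kb around the 5′ end of the gene record (light blue) and the canonical transcript (red), for each gene. The bars start at 0 and come from 1 pooled peak list, so they carry no error bars. The start chosen matters most for AKR1C2 (12.5% or 77.0%) and AKR1D1 (100% or 0%).

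In the gene bodies a peak was present in 6 of 6 genes, against 30.6% of all protein-coding genes. At least 25% of the body was covered in AKR1C3 and AKR1C4, 2 of 6, against 3.07% of all genes. As much cover as that of AKR1C4 was found in 1.55% of genes, as that of AKR1C3 in 1.68% and as that of AKR1D1 in 4.13%. For AKR1C1 the share was 4.72%, and for AKR1B10 and AKR1C2 9.05% and 9.15%. A peak lay within 500 bp of the 3′ end in AKR1C4 and AKR1D1 only, against 4.26% of all genes.

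The 4 AKR1C genes lie in the order AKR1C1, AKR1C2, AKR1C3, AKR1C4 on chromosome 10, from 4963415 to 5218949, with AKR1C2 pointing against the others. In these 255535 bp there were 19 TTD peaks, or 74.4 per Mb, against 10.8 per Mb over chromosome 10. They covered 43.6% of the span, against 3.17% of the chromosome. When chromosome 10 was divided into 523 pieces as long as the cluster, 0 had this much cover. Over the whole genome 26 of 12072 such pieces did, or 0.215%. The cluster was picked with its cover in view, and its span runs from gene to gene. The pieces start at fixed positions, which can cut through a covered region. These shares are therefore a description and do not measure how rare such cover is. The peaks were also wide, with a median of 5310 bp against 2250 bp for the whole list, and 3 of the 19 were 10 kb or wider, against 2.30% of all peaks. Their median GC content was 39.2%, equal to that of the span as a whole and below the median of 43.2% for all peaks.

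Of the 19 peaks, 5 touched a canonical transcript of AKR1C1 to AKR1C4 and 14 did not. The 4 transcripts were covered to 26.3% and the sequence between them to 50.4%, so that 83.2% of the covered bases lay outside the transcripts. With the canonical transcript of AKR1C8 counted as well, the share outside was 71.9%. The result turned with gene records, which span all transcripts of a gene and held 68.5% of the covered bases, with 31.5% outside. These records, with that of AKR1C8 among them, make up 177215 of the 255535 bp of the span. By gene records the cover was 43.1% inside and 44.8% outside. Between the start sites of AKR1C2 and AKR1C3, which point away from each other, 9 peaks covered 59.9% of 90.6 kb. Parts of this stretch belong to the annotated records of AKR1C2 and AKR1C3 through longer, non-canonical transcripts, whose expression was not measured here. Between AKR1C3 and AKR1C4, 7 peaks covered 43.2% of 89.2 kb, the widest of which measured 19950 bp and reached into AKR1C8. This neighbour, another gene of the family, had 40.3% of its body in peaks but none in the window around its TSS.

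The transcripts of AKR1C1 and AKR1C2, which face each other at their 3′ ends, were the least covered part. Together with the 4.49 kb between them, where no peak was listed, they were covered to 13.7%. From 4967761 to 5000230 there was no peak over 32470 bp, the longest such stretch of the span, which holds the fourth to the ninth exon of both genes. On the other side of the AKR1C1 TSS, the 30 kb upstream were covered to 85.8%. There, a peak of 23470 bp, from 4936761 to 4960230, ended 3185 bp before the TSS.

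**Figure D3:**
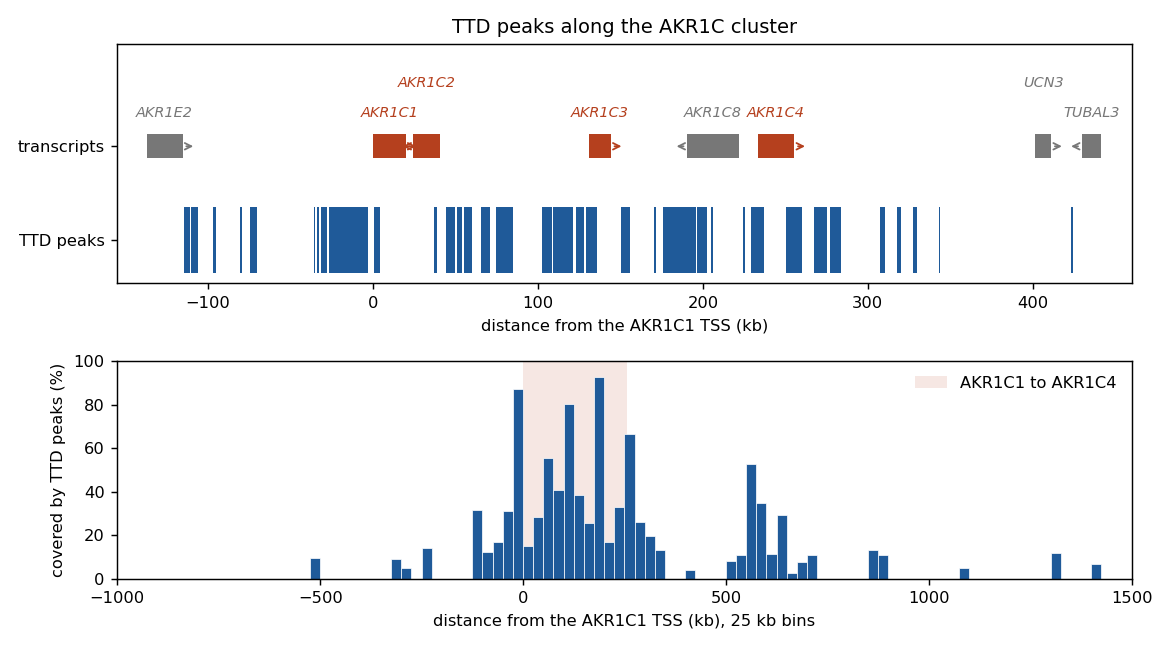
Upper panel: TTD peaks (blue) and canonical protein-coding transcripts (red for the AKR1 genes described, grey for neighbours, arrows for the direction) by distance from the AKR1C1 TSS in kb. Lower panel: percent of each 25 kb bin in TTD peaks, with the span from AKR1C1 to AKR1C4 shaded; the bins with the most cover, 92.8%, 87.3% and 80.5%, lie between AKR1C3 and AKR1C4, upstream of AKR1C1 and upstream of AKR1C3.

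The cover did not stop at the ends of the cluster. The 100 kb before AKR1C1 were covered to 36.9% by 7 peaks and the 100 kb after AKR1C4 to 26.6%, also by 7 peaks. Over 500 kb on these sides the values were 10.4% and 14.0%. The decline was not even, since a separate group of peaks lay beyond the neighbouring genes, with 52.8% of the bin that begins 550 kb from the AKR1C1 TSS. The next protein-coding genes, AKR1E2 on the side of AKR1C1 and UCN3 and TUBAL3 on the side of AKR1C4, had no peak in their bodies or TSS windows.

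Because the AKR1C genes resemble each other, reads can map to more than 1 of them, and the methods state no filter on mapping quality. As a measure of this, each 100-base stretch was looked up in hg38 on both strands. The reads were paired and, before trimming, longer than these stretches, and longer exact stretches recur less often or equally often. Copies with mismatches were not counted. The shares thus describe repeated sequence, not the share of reads that map to more than 1 place. In AKR1C1, 4374 of 19869 stretches occurred again elsewhere, or 22%, and in AKR1C2 3698 of 16083, or 23%, against 5.37% of stretches sampled every 2000 bases over hg38. For AKR1C3 the share was 2.03%, for AKR1C4 0.0904%, for AKR1B10 3.72% and for AKR1D1 0.0287%. Repeated sequence was thus concentrated in the genes with the least cover at the TSS, and it was most frequent at the TSS itself, with 50.7% of stretches in the central 500 bp of AKR1C1 and 60.9% in AKR1C2, against 0% in the other 4 genes. Within the peaks of AKR1C1 and AKR1C2 the shares were 9.66% and 13.7%, and outside of them 24.9% and 24.1%. In the 32470 bp without a peak the share was 23.6%, so by this measure most of the stretch occurs once in hg38. How far repeated sequence sets the cover of AKR1C1 and AKR1C2 was not tested.

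**Figure D4:**
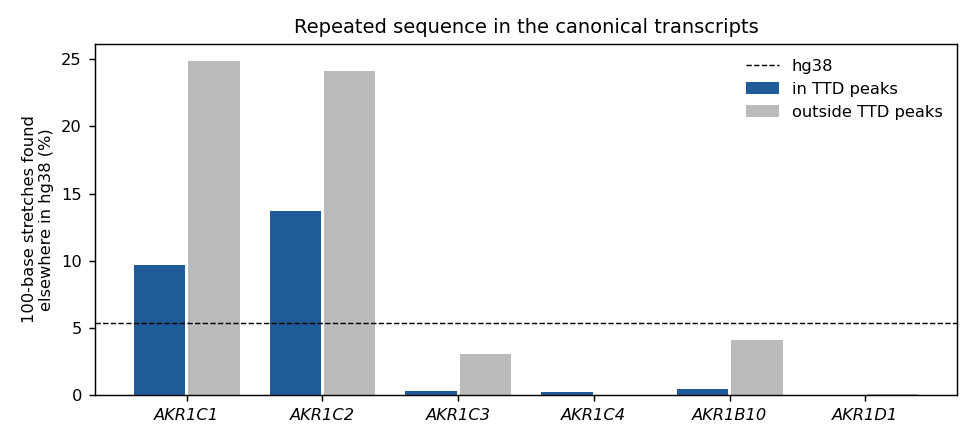
Percent of the 100-base stretches of each canonical transcript that occur again elsewhere in hg38, for stretches starting in TTD peaks (blue) and outside of them (grey); the dashed line is the value for hg38, 5.37%. AKR1C1 and AKR1C2 lie above the line in both classes and the other 4 genes lie below it.

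On chromosome 7, AKR1B10 is placed between AKR1B1 and AKR1B15 in the AKR1B cluster, and AKR1D1 stands by itself several Mb away. The span from AKR1B1 to AKR1B15, 138 kb, contained 5 peaks and was covered to 9.85%, a level met by 8.03% of equally long pieces of chromosome 7. AKR1B1, the aldose reductase of the polyol pathway, had no peak in its body and 41.6% of its TSS window in a peak that lay upstream, 421 bp from the TSS. AKR1B15 had 2 peaks in its body (10.8%) and none in its TSS window. Within 100 kb of the TSS of AKR1B10 there were 6 peaks, as many as at 17.2% of genes. AKR1D1 had 17 peaks within this distance on both sides, which covered 34.8%, against 9.24% around AKR1B10. Some of these 17 peaks lay in introns of the neighbouring gene CREB3L2. That gene had 10 peaks in its body, which covered 29.6%, and none in its TSS window.

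**Figure D5:**
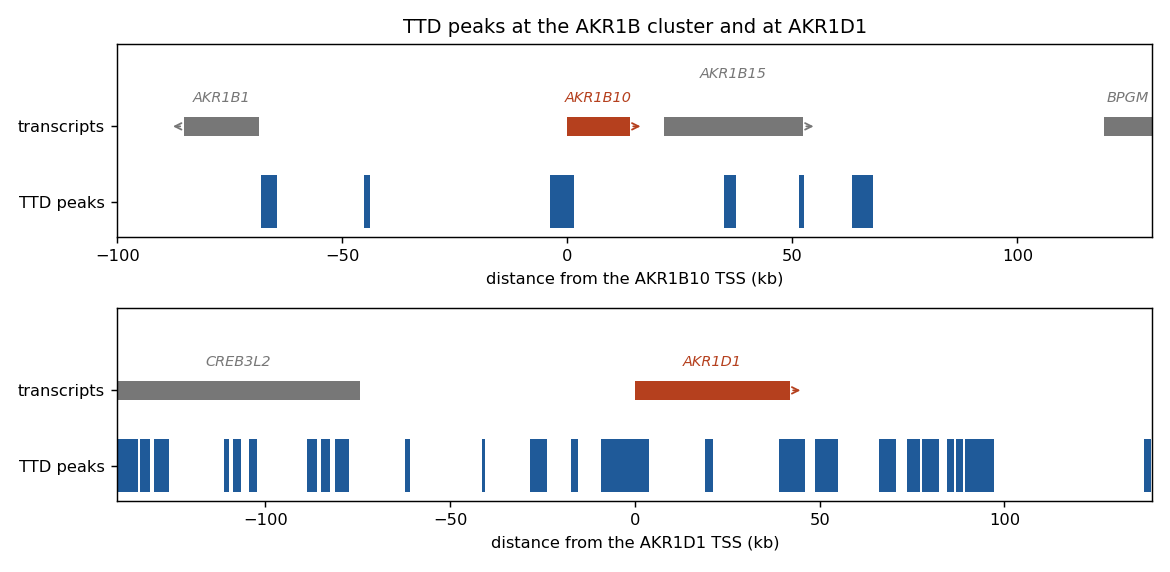
TTD peaks (blue) and canonical transcripts (red for AKR1B10 and AKR1D1, grey for neighbours) by distance in kb from the AKR1B10 TSS (upper panel) and from the AKR1D1 TSS (lower panel). A peak lies over each of the red start sites, with 6 peaks within 100 kb of AKR1B10 and 17 within 100 kb of AKR1D1.

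At least 10 peaks within 100 kb of the TSS were found for 5 of the 6 genes, all but AKR1B10, against 4.55% of all protein-coding genes. The numbers were 14 for AKR1C1, 15 for AKR1C2, 17 for AKR1C3 and 14 for AKR1C4, and these 4 genes share many of the same peaks. The genes do not share peaks with AKR1D1, which lies on another chromosome.

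Of 11 further aldo-keto reductase genes, AKR1B1 alone had a peak in the TSS window, or 9.09%, below the 16.9% of all genes, and the median cover was 0%. A peak in the body was found in AKR1C8, AKR1B15 and KCNAB1, 3 of 11 or 27.3%, against 30.6% of all genes. By canonical transcripts the body cover of AKR1C8, 40.3%, was above that of each of the 6 genes, of which AKR1C4 had the most with 37.9%. By gene records AKR1C3 had 56.1% and AKR1C4 41.5%, both above AKR1C8 with 40.3%. No peak was listed in the bodies or TSS windows of the aflatoxin aldehyde reductases AKR7A2 and AKR7A3 or of AKR1A1, whose nearest peaks were 94867, 76100 and 105446 bp from the TSS.

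Among 23 genes known as NRF2 targets, 6 had a peak in the TSS window, or 26.1%, against 16.9% of all genes, and the median cover was 0%. A peak in the body was also found in 6 of 23, or 26.1%, against 30.6% of all genes. In the TSS window the largest values were 46.2% for GCLC, a subunit of the enzyme that starts glutathione synthesis, 40.2% for the transporter ABCC2 and 35.2% for the cystine carrier SLC7A11. NQO1, GCLM and HMOX1 had no peak in the window or in the body.

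Among steroid and bile acid genes, 12 of 28 had a peak in the TSS window, or 42.9%, and 13 of 28 in the body, or 46.4%, against 16.9% and 30.6% of all genes. The median cover of the window was 0% here as well. The largest values were 89.7% for BAAT, which joins bile acids to amino acids, 89.0% for the bile acid CoA ligase SLC27A5 and 77.2% for the sterol hydroxylase CYP8B1. CYP7A1, the rate-limiting enzyme of bile acid synthesis, had 39.2%. Of the other enzymes of that pathway in the list, HSD17B4 had 63.7%, AMACR 31% and HSD3B7 12.2%, and CYP27A1, CYP7B1 and CYP39A1 had no peak in the window. The steroid reductases SRD5A1, SRD5A2 and SRD5A3 had no peak in the TSS window.

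Set beside 3 other tandem clusters of liver enzymes, the AKR1C cluster had the most cover over its span, 43.6%. The GSTA cluster of glutathione transferases on chromosome 6 was covered to 35.6% over 245 kb, the ADH cluster of alcohol dehydrogenases on chromosome 4 to 17.8% over 364 kb and the CYP2C cluster, also on chromosome 10, to 2.33% over 386 kb. A peak lay in the TSS window of 3 of 5 GSTA, 2 of 7 ADH and 2 of 4 CYP2C genes, against 16.9% of all genes. In the GSTA cluster, GSTA1 and GSTA2 had 90.0% and 88.7% of their bodies in peaks, more than any of the 4 AKR1C genes. With 1 pooled list, these differences were not tested.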

How the data were processed

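TTD CIDOP, H3K9me2 ChIP and input libraries of HepG2 cells were sequenced by the authors, 2 replicates each. Per the labels, reads were trimmed with Trimmomatic 0.38 and mapped to hg38 with HISAT2 2.2.1. The authors turned reads into RPKM per 10 bp bin with blacklisted regions left out (deepTools 3.3.2), pooled the TTD replicates, and called broad peaks with MACS2 2.1.1 at fixed cutoffs, followed by manual curation. Use of input in the calling, and any filter on mapping quality, are not given in the sources used here. The deposited file holds peak positions and widths in bp.

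Cover is the percent of a window in peaks, a peak counts from 1 shared base, and TSS and gene body are those of the Ensembl canonical transcript in GENCODE release 44. Genes, lists and alternatives were chosen with earlier results of these data known. Named are the 6 genes, their neighbours, and per list the 3 with most TSS cover. Others were named after their values were seen. Promoter windows are from RefSeq on GRCh38.p14, aligned with biopython 1.88. The interval arithmetic was tested on simulated data. Python 3.11.15, numpy 2.4.6, scipy 1.17.1, pysam 0.24.0, matplotlib 3.10.9, samtools 1.23.1 and numba 0.67.0 served for the computation. No test was run, because the genes were picked from the 1 pooled list.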

Additional observations from a re-analysis of the deposited data

How the results depend on the processing

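The cover of the AKR1C cluster stayed between 41.6% and 44.6% with only peaks no narrower than the median, with gene records, with 10 kb added on each side and with peaks less than 1 kb apart joined. The number of genes with a peak in the TSS window, 6, became 5 with these wider peaks (7.31% of all protein-coding genes), with gene records (16.9%) and with 1 kb on each side (10.8%). It was 6 with 5 kb on each side (22% of all genes) and 4 where the peak midpoint had to lie in the window (12.2%). For the gene body it became 5 with the wider peaks (18.2% of all genes) and with midpoints (29.0%), and 6 with gene records (34.2%). Of 36 values of single genes recomputed, 16 moved by more than the 95% Wilson interval over 150 bp units. Neighbouring units often lie in the same peak and are not independent. The interval thus only sorted the values and measured no error. The AKR1C1 TSS window fell from 38.9% to 22.2% with 1 kb on each side. With 5 kb it rose to 56.1%, which did not count as moved. That of AKR1B10 fell from 80.5% to 52.9% with 5 kb. The body of AKR1C3 rose from 36.3% to 56.1% with gene records. The TSS window of AKR1C2 moved from 12.5% in each setting, to 0% with the wider peaks and with 1 kb on each side, to 28.3% with 5 kb on each side and to 77.0% with gene records. The share of covered bases outside genes in the AKR1C span, 83.2% with the 4 transcripts, was 71.9% with all canonical protein-coding transcripts and 31.5% with gene records, both alternatives chosen after seeing the data. Among genes of 0.5 to 2 times the length, the share with as much body cover was 5.16% for AKR1C1, 10.2% for AKR1C2, 1.80% for AKR1C3, 1.37% for AKR1C4, 10.3% for AKR1B10 and 3.82% for AKR1D1. With 50-base stretches, further from the length of the reads, 37.0% of AKR1C1 and 38.8% of AKR1C2 occurred elsewhere, against 10.2% of hg38. No paired analysis was possible because the 2 TTD replicates were pooled before peaks were called, and for the same reason neither could be left out. The list holds no score, so where no peak is listed, this holds for the cutoffs the authors used.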

Other observations

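The remnants of the family in the AKR1C locus were also partly in peaks. The pseudogene AKR1C6P, upstream of AKR1C1, contained 2 peaks and was covered to 22.8%. AKR1C5P, between AKR1C3 and AKR1C8, was covered to 8.52%, and AKR1C7P, beyond AKR1C4, to 18.6%. A record of a U8 snoRNA lies just before the canonical start of each of AKR1C1, AKR1C2 and AKR1C3, and only the copy at AKR1C3 was in a peak. Of the lncRNA records, ENSG00000287848, antisense within AKR1C4, was covered to 100% by the peak over the 3′ end of that gene, and ENSG00000224251, within AKR1C2, contained no peak.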
